A study of Mus musculus with 6 samples.

Results

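Chemokines are small secreted proteins that direct the movement of leukocytes, and they act through receptors of the G protein-coupled family. Of the 57180 rows of the deposited gene table, 58 were protein-coding genes named as chemokines (Ccl, Cxcl, Cx3cl1, Xcl1), chemokine receptors (Ccr, Cxcr, Cx3cr1, Xcr1) or atypical chemokine receptors (Ackr). Ccl19, Ccl21a and Cxcl13 were left out of the set by its definition. The 58 genes comprised 35 ligands, 19 signalling receptors and 4 atypical receptors. RNA sequencing had been done on inguinal white adipose tissue (iWAT), the fat beneath the skin of the groin, from male wild-type mice. All mice ate a high-fat diet for 12 weeks, without a supplement in 1 group (HFD, 3 samples) and with 0.5% hesperidin, a citrus flavonoid, in the other (HEP, 3 samples). The series' design also names a control diet, which is not analysed here. The labels did not give the animals' age or say whether each sample came from 1 mouse or a pool, so the spread behind each p-value is that among these samples and may be technical.

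Ligands fall into families by the spacing of their leading cysteines (CC, CXC, CX3C and XC), and each receptor family is named for the ligands it binds. A receptor that binds its ligand activates Gi proteins and moves the cell up the gradient. Inflammatory ligands are induced in injured or inflamed tissue and draw in monocytes, neutrophils and effector T cells, whereas homeostatic ligands place lymphocytes and dendritic cells in lymphoid tissue. Atypical receptors bind chemokines without activating G proteins and remove or transport them. In obese fat, Ccl2 and its receptor Ccr2 are known for recruiting monocytes that become macrophages, and the inguinal fat pad of the mouse surrounds a lymph node.

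The values are TPM, transcript abundances scaled for transcript length and for the library's total, so that levels can be compared between genes. Sequencing depth per sample is unknown because TPM keeps none. In every sentence that lists 3 values for a group, they are those of replicates 1, 2 and 3 in that order. HFD replicate 3, HEP replicate 1 and HEP replicate 3 stood apart from the other libraries. All 9 B cell markers and all 8 T cell markers had their 3 highest values in these 3 libraries, as did all 4 markers of high endothelial venules, the vessels through which lymphocytes enter lymph nodes. Summed B cell markers came to 6.57 to 587 TPM on HFD and 6.70 to 1293 TPM on HEP, summed T cell markers to 4.43 to 397 TPM on HFD and 6.08 to 581 TPM on HEP, and none of these markers was at 0 throughout. These 3 are called the lymphocyte-rich libraries below. Of the 8 macrophage markers 0 followed that order, with sums of 338 to 659 TPM on HFD and 389 to 450 TPM on HEP, and of the 5 adipocyte markers 0 did. Of these 5, 4 had the opposite order, and they summed to 42260, 44689 and 34984 TPM on HFD and 26534, 43144 and 26154 TPM on HEP. HEP replicate 2 held 10237 TPM of 5 skeletal muscle markers against 50.8 to 1161 TPM in the other libraries, and 2347 TPM of 4 liver markers, of which HFD replicate 1 held 1531 TPM. In bulk tissue, fewer cells of a type and less RNA per cell cannot be told apart.

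None of the 40 chemokine and receptor genes tested passed the test of HEP against HFD. The comparison asked what hesperidin changes in fat on a high-fat diet. The test took every gene whose mean level reached 1 TPM, as did 40 of the 58 genes (22 ligands, 15 receptors and 3 atypical receptors). In limma with Benjamini-Hochberg adjustment over 15446 genes, 0 of the 40 had an adjusted p under 0.05, against a background of 0% of all genes tested. At an unadjusted p under 0.05 there were 0 of 40, against 1.81% of all genes (279), of which 105 were higher and 174 lower in HEP. Adjusted limma p-values of the 40 genes lay between 0.879 and 0.984. The 10 smallest p-values before adjustment belonged to Ccl2, Cxcl12, Ackr3, Cxcl9, Ccl25, Xcl1, Cxcl10, Cxcr2, Ackr1 and Cxcl1. HEP was above HFD in every sample for 0 of 40 (1.88% of all genes) and below HFD in every sample for 1 of 40 (3.58% of all genes), which was Ccl2. The median log2 fold change (HEP minus HFD, of TPM + 1) of the 40 was 0.42, with 26 higher and 14 lower in HEP. Over all genes tested the median was 0.07, with 9057 higher and 6389 lower. The median standard error was 0.56 for the 40 and 0.27 for all genes, so the chemokine genes typically varied more between libraries of the same diet. Below, a difference between diets is this log2 fold change ± its SE (n = 3 per group).

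**Figure D1:**
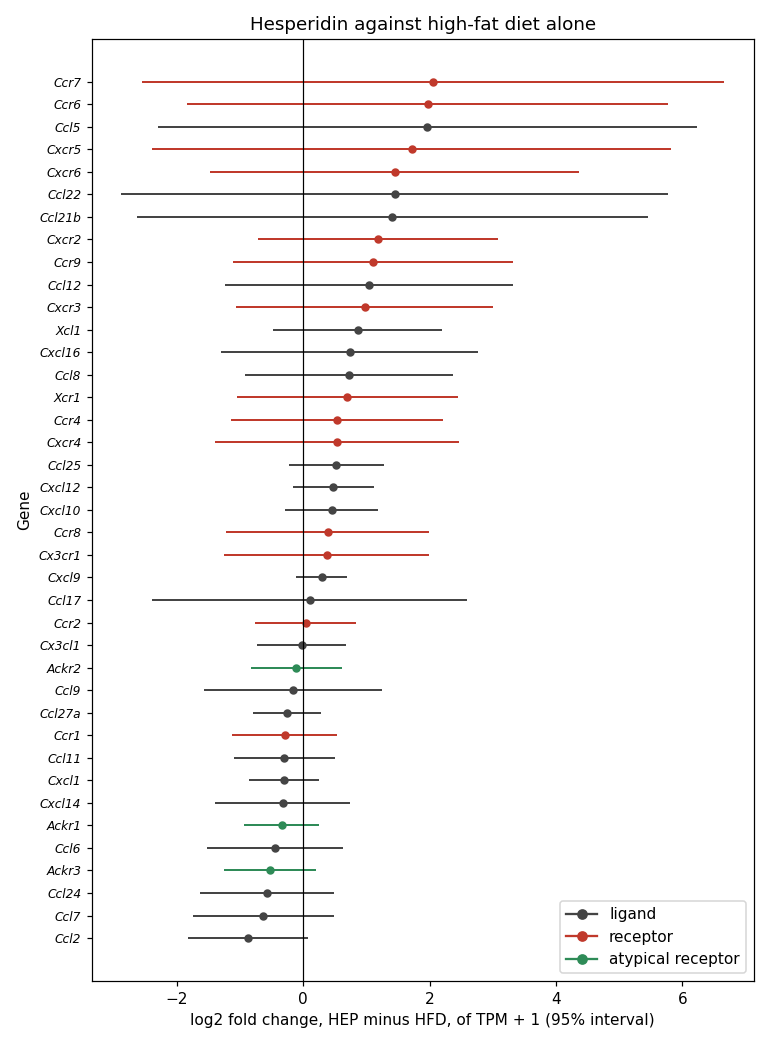
Log2 fold change of 39 of the 40 tested chemokine and receptor genes (points, HEP minus HFD, of TPM + 1) with its 95% interval from limma (lines), coloured by class, n = 3 per group. Every interval crosses 0; the widest belong to genes such as Ccr7 and Ccl22, and that of Ccl2 ends at 0.06.

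By class, most receptors had higher fitted values in HEP and the atypical receptors lower ones, and no gene of either passed. Of 15 receptors 14 had a higher fitted value in HEP (median log2 fold change 0.69), of 22 ligands 12 did (median 0.19), and of 3 atypical receptors 0 did (median -0.34). Of all 15446 genes tested, 9057 had a higher fitted value in HEP. With median-of-ratios scaling 13 of 15 receptors were higher and with quantile normalization 13 of 15, where 11 of 22 ligands were. Over all genes, 8343 were higher with median-of-ratios scaling and 6534 with quantile normalization. Quantile normalization moved the median of all genes by -0.13, from 0.07 to -0.06. With the mean of the B and T cell markers as a covariate, 6 of 15 receptors and 9 of 22 ligands were higher in HEP. In that fit 7535 of all genes were higher and 7911 lower, and the median of the 40 genes was -0.09. Without HEP replicate 2, 9 of 40 genes (22.5%) had an unadjusted limma p under 0.05, beside 23.8% of all genes, and 0 passed after adjustment. Of the 9 genes, all but Ackr3 had their 3 highest values in the lymphocyte-rich libraries. HEP replicate 2 is high in muscle and liver transcripts and is also the only HEP library that is not lymphocyte-rich. Leaving it out changes both at once, so diet and lymphocyte content cannot be told apart in that fit.

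Many genes of the set shared an order of libraries that cut across the diets. For 23 of the 40 genes (57.5%) the 3 highest values lay in the lymphocyte-rich libraries, as they did for 30.5% of all genes tested. In 20 of 40 (50%) the lowest of those 3 values was at least 2 times the highest of the other 3, against 7.71% of all genes, and in 11 of 40 (27.5%) at least 10 times, against 2.93%. The opposite order, with the 3 highest values in HFD replicates 1 and 2 and HEP replicate 2, was found in 6 of 40 (15%), near the 13.7% of all genes. Those 6 were Ccl6, Ccl7, Ccl11, Ccl27a, Ackr2 and Ackr3, and 4 of the 5 adipocyte markers shared their order; the part of adipocyte content in it was not tested. By class, the lymphocyte-rich order held in 12 of 15 receptors, 11 of 22 ligands and 0 of 3 atypical receptors. Of the 23 genes 9 were under 1 TPM in all 3 other libraries and so passed the filter only through the libraries in which they were high. All 9 are among the 20 genes above, and all but Cxcr2 are among the 11. All of the 9 but Ccl21b are receptors. Ccl17, Ccr7 and Cxcr3 reached at most 1.93, 1.05 and 1.15 TPM in the other 3 libraries but averaged under 1 TPM there. These genes too needed the lymphocyte-rich libraries to pass. The shares by class and those at 2 and 10 times therefore rest partly on the filter and were not counted under another one. Without the filter the order was found in 27 of 57 genes (20.7% of all genes), with a minimum mean of 5 TPM in 14 of 28 (30.8% of all genes) and with median-of-ratios scaling in 23 of 40 (26.3% of all genes). Leaving out 1 library moved the fold change by over 1.5 times in 33 of the 35 tested genes whose values in every sample are given here, all but Cxcl1 and Cxcl9. In the 22 of these 35 with the lymphocyte-rich order it was highest without HFD replicate 3 or without HEP replicate 2. That follows from the order itself, in which HFD replicate 3 is the highest HFD value and HEP replicate 2 the lowest HEP value. The part of lymphocyte content in these orders was not tested.

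**Figure D2:**
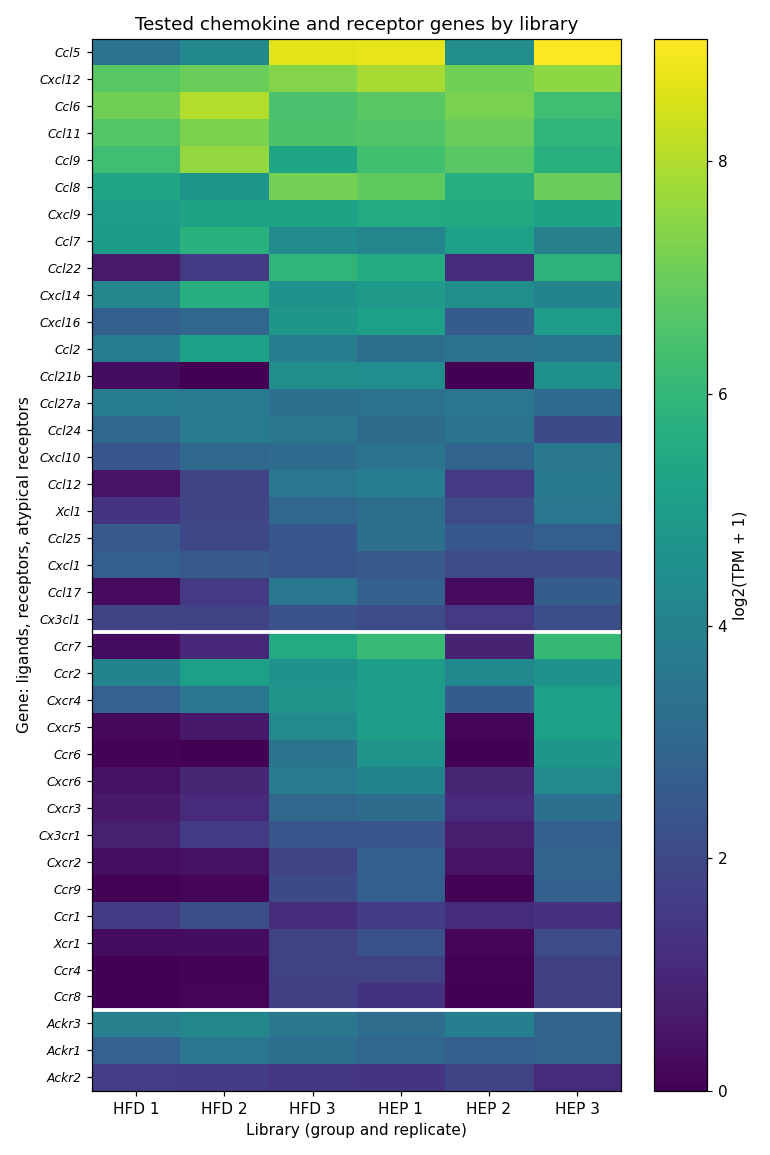
Heat map of log2(TPM + 1) for 39 of the 40 tested genes (rows, by class and then by mean level, separated by white lines) in the 6 libraries (columns). HFD 3, HEP 1 and HEP 3 share bright rows such as Ccl5, Ccl22, Ccl21b, Ccr7 and Cxcr5 that are dark in HFD 1, HFD 2 and HEP 2, while Ccl6, Ccl11 and Ackr3 do not follow that order.

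Among the lymphocyte-rich libraries, some genes of the set were led by the HFD library. HFD replicate 3 had the highest of the 3 values in 6 of the 23 genes (26.1%), namely Ccl8, Ccl17, Ccl22, Cx3cl1, Ccr4 and Ccr8, beside 4.12% of the 4704 genes of all kinds with the same order. It had the lowest of the 3 values in 15 of 23 (65.2%), against 83.2%, and these differences in shares were not tested. HFD replicate 3 and HEP replicate 3, the next highest, had 2.28 and 2.27 TPM of Ccr8 and 3.77 and 3.50 TPM of Cx3cl1. They had 60.0 and 56.2 TPM of Ccl22 and 141 and 125 TPM of Ccl8. For Ccr4 and Ccl17 HEP replicate 1 was next, at 2.33 against 2.44 TPM and 5.80 against 10.8 TPM. Ccr4 and Ccr8 passed the filter only through these libraries. Over all 6 libraries, HFD replicate 2 was highest in 12 of the 40 genes (30%), against 24.2% of all genes. Among them were the ligands Ccl2, Ccl6, Ccl7, Ccl9, Ccl11, Ccl24 and Cxcl14. That library also had the highest sums of macrophage markers (659 TPM), adipocyte markers (44689 TPM), adipose progenitor markers (816 TPM) and blood vessel markers (422 TPM). The part of any of these cell types in the ligand levels was not tested.

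The leading ligand and the leading receptor differed between the libraries. Summed over the 35 ligands, HFD had 602, 1021 and 1214 TPM and HEP 1321, 750.0 and 1281 TPM. Ccl6 was the most abundant ligand in HFD replicate 1 (22.7% of the ligand sum), HFD replicate 2 (25.4%) and HEP replicate 2 (19.8%). Ccl5 led in HFD replicate 3 (34.1%), HEP replicate 1 (31.5%) and HEP replicate 3 (41.4%). Receptors were less abundant, with sums of 29.8, 62.1 and 168 TPM on HFD and 245, 33.8 and 248 TPM on HEP. Ccr2 made up 53.0%, 53.5% and 52.8% of the receptor sum in HFD replicates 1 and 2 and HEP replicate 2, whereas Ccr7 led in HFD replicate 3 (27.0%), HEP replicate 1 (27.4%) and HEP replicate 3 (26.6%). The atypical receptor sums were 23.6, 30.1 and 22.1 TPM on HFD and 18.2, 23.2 and 15.1 TPM on HEP.

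**Figure D3:**
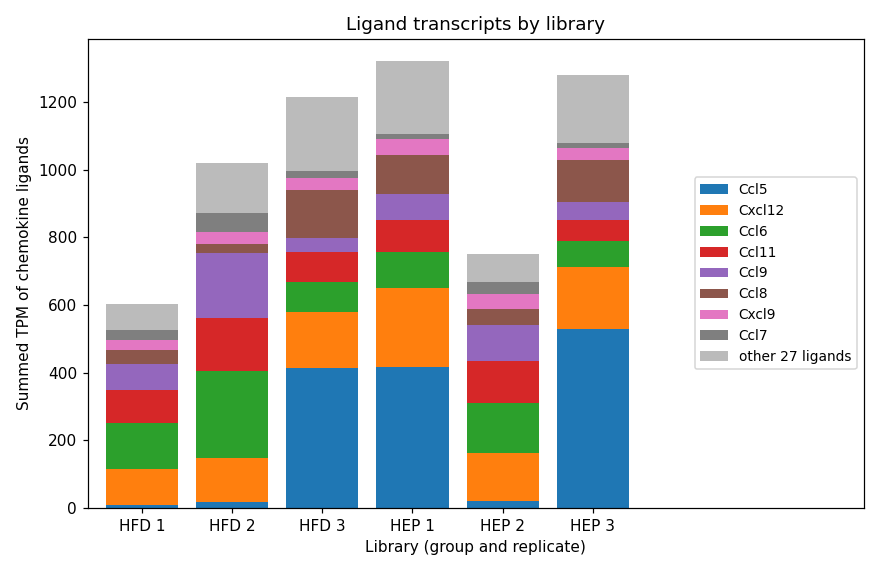
Stacked bars of ligand TPM in each library, split into the 8 ligands with the highest means and the other 27. Ccl5 takes 413 to 530.1 TPM in HFD 3, HEP 1 and HEP 3 and 9.84 to 21.3 TPM in the other libraries, while Cxcl12 and Ccl11 are present in all 6.

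Among the monocyte ligands, Ccl2 was the gene nearest to a difference between the diets. Ccl2, which draws Ccr2-bearing monocytes out of the blood, had 12.9, 35.0 and 13.6 TPM on HFD and 8.72, 9.81 and 10.4 TPM on HEP. All 3 HEP values lay below all 3 HFD values, and HFD replicate 2 was far above the rest. The difference was -0.87 ± 0.39. Limma gave it an adjusted p of 0.879, from an unadjusted p of 0.0622, the smallest of the set. Without HFD replicate 2 the fold change was -0.43, without HFD replicate 1 it was -1.11, and with the lymphocyte covariate -0.75. With quantile normalization Ccl2 was the only gene of the 40 with an unadjusted limma p under 0.05, beside 2.87% of all genes. Ccl7, another Ccr2 ligand, had 29.6, 53.8 and 19.5 TPM on HFD and 16.5, 33.7 and 14.2 TPM on HEP, a difference of -0.63 ± 0.46. Its highest values lay in HFD replicate 2, HEP replicate 2 and HFD replicate 1, and the groups overlapped. The other 2 monocyte ligands had a different order of libraries. Ccl8, a ligand of Ccr8 in the mouse, had 40.2, 26.3 and 141 TPM on HFD and 115, 48.7 and 125 TPM on HEP. Ccl12, a rodent ligand of Ccr2, had 0.39, 2.58 and 10.7 TPM on HFD and 12.9, 1.89 and 11.5 TPM on HEP. For both, the lymphocyte-rich libraries stood above the others by at least 2.36 and 4.14 times, and the diet groups overlapped, with differences of 0.73 ± 0.67 and 1.04 ± 0.93.

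Ccl12 and Ccl8 are adjacent genes, and the sequences before their start sites are shown because the pair shared its order of libraries while the neighbours Ccl2, Ccl7 and Ccl11 on the same strand did not. Ccl1, the next gene after Ccl8, lies on the opposite strand and below the filter and also had its 3 highest values in the lymphocyte-rich libraries. Promoters from RefSeq (GRCm38.p6, 250 bases before to 50 bases after a start site) were found for 44 of the 58 genes, with 51 windows. None was found for Ccl2, Ccl7 or Ccl11, so the pair cannot be compared with these neighbours. The windows were searched on both strands for the TATA box TATAAA, for the core GGGANTTTC bound by NF-kappaB, for the core AANNGAAA bound by interferon regulatory factors (IRF) and for the octamer ATGCAAAT bound by POU factors. The 250 bases before each start are printed 5′ to 3′ on the gene's strand, with matches in capitals. The Ccl12 sequence is chr11:82101595-82101844 (plus strand) and the Ccl8 sequence is chr11:82114935-82115184 (plus strand).
Ccl12: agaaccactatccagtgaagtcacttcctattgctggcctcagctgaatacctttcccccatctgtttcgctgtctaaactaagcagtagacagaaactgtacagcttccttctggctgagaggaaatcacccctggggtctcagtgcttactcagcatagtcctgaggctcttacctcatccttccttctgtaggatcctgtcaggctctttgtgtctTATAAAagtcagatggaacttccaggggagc
Ccl8: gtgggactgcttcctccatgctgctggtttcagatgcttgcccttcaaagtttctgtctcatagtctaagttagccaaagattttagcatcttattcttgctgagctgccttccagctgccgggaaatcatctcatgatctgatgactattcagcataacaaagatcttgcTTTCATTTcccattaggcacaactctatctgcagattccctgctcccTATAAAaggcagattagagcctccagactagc
Both hold TATAAA, at position -31 in Ccl12 and -32 in Ccl8 counted back from the start site. The IRF core was found on the opposite strand as TTTCATTT, at position -79 in Ccl8 and at position 29 after the start in Ccl12, past the printed stretch. In the windows shown, no matches overlap. TATAAA was in 14 of the 51 windows and in 13.6% of all 32851 promoters of the table, and the IRF core in 14 of 51 and in 23.9%. The kappaB core was in 6 of 51, those of Ccr3, Cxcl1, Cxcl2, Cxcl3, Cxcl9 and Cxcr2, and in 1.11% of all promoters. A match describes the letters and is not a measured site.

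The ligands Ccl5, Ccl6 and Ccl9 comprised a lymphocyte product and a pair of myeloid products. Ccl5, made by T and NK cells, was the most abundant gene of the set on average and had 9.84, 17.6 and 413 TPM on HFD and 416, 21.3 and 530.1 TPM on HEP. The lymphocyte-rich libraries exceeded the others by at least 19.4 times, and the difference between diets was 1.96 ± 1.76 with overlap. It was 0.96 without HFD replicate 1, 3.58 without HFD replicate 3 and 0.06 with the lymphocyte covariate. Ccl6, a rodent ligand of Ccr1 made by myeloid cells, had 137, 259.6 and 86.9 TPM on HFD and 106, 148 and 77.2 TPM on HEP, and Ccl9, its neighbour gene with a like role, had 76.9, 194 and 40.5 TPM on HFD and 77.5, 105 and 52.3 TPM on HEP. HFD replicate 2 was the highest library for both, and neither separated the diets, with differences of -0.45 ± 0.44 and -0.17 ± 0.58. Ccl3 and Ccl4, the macrophage inflammatory proteins, were below the filter, at means of 0.98 and 0.88 TPM. Ccl4 was listed at 0.28, 0.57 and 0.64 TPM on HFD and 1.07, 1.23 and 1.48 TPM on HEP, so that all HEP values lay above all HFD values. The share of genes below the filter with such a separation was not counted. Without the filter Ccl4 was the only gene of 57 in the set with an unadjusted limma p under 0.05, beside 2.13% of all genes.

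Of the eosinophil ligands, Ccl11 was abundant in every library. Ccl11 (eotaxin), which acts through Ccr3 and is made by stromal cells, had 98.1, 154 and 91.0 TPM on HFD and 95.1, 126 and 61.0 TPM on HEP, a difference of -0.30 ± 0.32. HEP replicate 3 was the lowest library and HFD replicate 2 the highest. Ccl24, the other tested eosinophil ligand, ranged from 2.99 TPM in HEP replicate 3 to 12.5 TPM in HFD replicate 2. Ccl26 was listed at 0 in all 6 libraries. Ccr3, the eosinophil receptor for these ligands, lay below the filter, at 0, 0.16 and 0.18 TPM on HFD and 0.19, 0 and 0.17 TPM on HEP.

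The Ccr4 ligands Ccl22 and Ccl17, which dendritic cells and macrophages make to attract T cells, were high in the lymphocyte-rich libraries and led there by HFD replicate 3. Ccl22 had 0.57, 2.05 and 60.0 TPM on HFD and 46.5, 1.17 and 56.2 TPM on HEP, and the lymphocyte-rich libraries exceeded the others by at least 22.7 times. Ccl17 had 0.21, 1.93 and 10.8 TPM on HFD and 5.80, 0.20 and 5.29 TPM on HEP, with a separation of at least 2.74 times. Their differences between diets were 1.44 ± 1.78 and 0.10 ± 1.02, and that of Ccl17 was -0.15 with quantile normalization. The Ccl22 value was 0.41 without HFD replicate 1 and 3.05 without HFD replicate 3. With the lymphocyte covariate the fold changes were -0.49 and -0.95, and Ccl17 was the only gene of the 40 with an unadjusted p under 0.05 in that fit, in which 3.46% of all genes had one. The 4 dendritic cell markers summed to 18.7, 23.0 and 34.8 TPM on HFD and 48.9, 17.8 and 41.5 TPM on HEP, and 3 of the 4 followed the lymphocyte-rich order. Their part in the levels of Ccl22 and Ccl17 was not tested.

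Cx3cl1 lies between Ccl22 and Ccl17, and the 3 sequences are shown because these neighbours on the same strand had libraries apart by unequal factors. Cx3cl1 (fractalkine), a membrane-bound ligand of Cx3cr1 made by endothelium and epithelium, had 2.62, 2.49 and 3.77 TPM on HFD and 3.34, 1.92 and 3.50 TPM on HEP. Its 3 highest values were in the lymphocyte-rich libraries too, but only by 1.27 times, and the difference between diets was -0.03 ± 0.28. The printed stretches are chr8:94745434-94745683 for Ccl22, chr8:94771930-94772179 for Cx3cl1 and chr8:94810203-94810452 for Ccl17, all on the plus strand of GRCm38.p6.
Ccl22: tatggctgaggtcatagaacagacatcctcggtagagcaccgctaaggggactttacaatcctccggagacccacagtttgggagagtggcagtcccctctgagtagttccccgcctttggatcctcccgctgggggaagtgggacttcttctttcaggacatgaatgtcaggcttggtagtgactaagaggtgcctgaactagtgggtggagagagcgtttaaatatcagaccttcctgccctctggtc
Cx3cl1: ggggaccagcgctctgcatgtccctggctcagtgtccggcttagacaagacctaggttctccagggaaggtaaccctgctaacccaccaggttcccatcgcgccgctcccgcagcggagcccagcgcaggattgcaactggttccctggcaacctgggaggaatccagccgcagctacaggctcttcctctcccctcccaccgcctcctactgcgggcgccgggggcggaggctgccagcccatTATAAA
Ccl17: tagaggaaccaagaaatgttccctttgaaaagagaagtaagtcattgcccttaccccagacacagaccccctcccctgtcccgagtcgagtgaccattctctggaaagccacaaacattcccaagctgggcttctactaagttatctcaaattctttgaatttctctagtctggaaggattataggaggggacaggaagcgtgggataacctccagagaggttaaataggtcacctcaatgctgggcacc
Cx3cl1 holds TATAAA at position -6. None of the 4 motifs is in the windows of Ccl22 or Ccl17, which says only that these letters are not there.

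Ligands of barrier tissues were low, and the lymphoid ligand copy Ccl21b had the largest ratio between the lymphocyte-rich and other libraries among the tested ligands. Ccl25, the gut and thymus ligand of Ccr9, had 4.83, 2.91 and 4.54 TPM on HFD and 9.19, 4.66 and 5.53 TPM on HEP, a difference of 0.53 ± 0.31 with overlap. Ccl27a, the skin ligand of Ccr10, had 12.9, 12.7 and 8.90 TPM on HFD and 9.59, 10.6 and 7.88 TPM on HEP, a difference of -0.26 ± 0.22. The span of each overlaps that of a gene on the opposite strand (Elavl1 for Ccl25 and Il11ra1 for Ccl27a). Whether the counting used strand is not stated, so reads from a stretch shared by 2 genes may not be told apart. Whether their exons overlap was not examined. Ccl20, the ligand of Ccr6, was listed at 0 in 5 libraries and at 0.41 TPM in HEP replicate 3. Ccl21b, a copy of the lymph node ligand of Ccr7, had 0.22, 0 and 21.1 TPM on HFD and 20.8, 0 and 22.1 TPM on HEP. The lowest lymphocyte-rich library exceeded the highest other library by 94.4 times, a ratio that rests on the value of 0.22 TPM, near 0. The difference between diets was 1.41 ± 1.67, which was 0.61 without HFD replicate 2 and 2.90 without HEP replicate 2. Ccl21b is nearly identical to Ccl21a and Ccl21d, and Ccl27a to Ccl27b, so the split of reads among copies is uncertain.

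Among CXC ligands, the interferon-induced pair and Cxcl12 were present in every library. Cxcl9, induced by interferon gamma and bound by Cxcr3, had 30.0, 36.6 and 36.8 TPM on HFD and 45.7, 44.4 and 36.8 TPM on HEP. Its difference of 0.29 ± 0.16 had the smallest standard error among the 40 genes. Cxcl10, a second Cxcr3 ligand, had 4.34, 7.26 and 7.98 TPM on HFD and 9.95, 6.53 and 11.3 TPM on HEP, a difference of 0.45 ± 0.30. HEP means were higher for both and the groups overlapped. Cxcl10 lies opposite Art3, which had 300.2 to 475 TPM. Cxcl12, the stromal ligand of Cxcr4 that retains haematopoietic cells, had 104, 129 and 167 TPM on HFD and 235, 139.8 and 183 TPM on HEP, a difference of 0.47 ± 0.26. HEP replicate 1 was highest and HFD replicate 1 lowest, and HFD replicate 3 exceeded HEP replicate 2. Cxcl1, a neutrophil ligand acting on Cxcr2, had 5.48, 4.92 and 4.35 TPM on HFD and 4.70, 3.35 and 3.38 TPM on HEP, a difference of -0.31 ± 0.22. The other neutrophil ligands Cxcl2, Cxcl3, Cxcl5 and Cxcl15 were below the filter, and of these Cxcl2 reached 2.33 TPM in HFD replicate 2.

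Cxcl16, Xcl1 and Cxcl14 completed the tested ligands. Cxcl16, a transmembrane ligand of Cxcr6, had 5.69, 6.96 and 26.6 TPM on HFD and 33.3, 5.18 and 30.8 TPM on HEP, with the lymphocyte-rich libraries at least 3.82 times above the others and a difference between diets of 0.73 ± 0.83. Xcl1 (lymphotactin), made by T and NK cells, had 1.66, 2.71 and 6.87 TPM on HFD and 8.55, 3.16 and 10.7 TPM on HEP, a difference of 0.86 ± 0.55. Both groups held low and high libraries for each gene. Cxcl14 ranged from 15.8 TPM in HEP replicate 3 to 50.3 TPM in HFD replicate 2.

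All 5 listed receptors of lymphocyte homing followed the lymphocyte-rich order, found in 30.5% of all genes tested, and Ccr7 had the widest range of the set. Of these, Ccr6, Ccr7, Ccr9 and Cxcr5 averaged under 1 TPM in the other libraries. They passed the filter only through the lymphocyte-rich ones, so their order rests partly on the filter. Ccr7, which brings naive T cells and mature dendritic cells into lymph nodes, had 0.24, 1.05 and 45.2 TPM on HFD and 67.0, 0.85 and 65.9 TPM on HEP. Cxcr5, which brings B cells and follicular helper T cells into follicles, had 0.15, 0.54 and 19.4 TPM on HFD and 32.2, 0.10 and 34.2 TPM on HEP. Ccr6, found on B cells and on T cells of the Th17 type, had 0.06, 0 and 10.2 TPM on HFD and 24.9, 0 and 26.5 TPM on HEP. In HFD only replicate 3 was high, and in HEP replicates 1 and 3 were, so that each diet held low and high libraries. The differences were 2.05 ± 1.90, 1.72 ± 1.69 and 1.97 ± 1.57, and with the lymphocyte covariate -0.02, -0.13 and 0.26. Without HEP replicate 2 they were 3.78, 3.37 and 3.55, and without HEP replicate 3 1.20, 0.87 and 1.16. Ccr9, a gut-homing receptor, had 0.03, 0.13 and 3.11 TPM on HFD and 5.51, 0.05 and 5.99 TPM on HEP, a difference of 1.11 ± 0.91. Cxcr4, the Cxcl12 receptor carried by most leukocytes, had 6.25, 10.6 and 25.6 TPM on HFD and 31.3, 5.15 and 33.3 TPM on HEP, and its lymphocyte-rich libraries exceeded the others by 2.40 times at least. Its difference between diets was 0.54 ± 0.79.

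Ccr6 had the largest separation between libraries, at least 171 times, a ratio of 10.2 TPM in HFD replicate 3 to 0.06 TPM in HFD replicate 1. Its size rests on that value near 0. Of the 44 genes with a promoter Ccr6 alone held the octamer, which is in 1.74% of all promoters and in 1 of the 51 windows, a like share. No promoter was found for Ccr7 or Cxcr5, so these receptors were not searched. The sequence before the upstream of its 2 RefSeq start sites, chr17:8235793-8236042 (plus strand, GRCm38.p6), is shown for these letters.
Ccr6: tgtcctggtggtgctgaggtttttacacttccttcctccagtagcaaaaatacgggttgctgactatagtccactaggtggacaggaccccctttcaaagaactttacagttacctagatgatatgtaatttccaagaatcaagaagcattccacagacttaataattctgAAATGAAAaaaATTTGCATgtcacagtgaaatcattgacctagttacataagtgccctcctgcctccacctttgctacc
The IRF core stands as AAATGAAA at position -79 and the octamer on the opposite strand as ATTTGCAT at position -68, without overlap. The window of the other start site holds the IRF core and no octamer.

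Cxcr3, Cxcr6 and Ccr4, receptors of effector and memory T cells, were low outside the lymphocyte-rich libraries. Cxcr3, the receptor of Th1 and cytotoxic T cells for Cxcl9 and Cxcl10, had 0.55, 1.10 and 6.92 TPM on HFD and 8.16, 1.15 and 8.89 TPM on HEP. Cxcr6, a receptor of tissue-resident T cells for Cxcl16, had 0.32, 0.95 and 11.8 TPM on HFD and 16.0, 0.93 and 19.3 TPM on HEP. Ccr4, the receptor for Ccl17 and Ccl22, had 0.02, 0.07 and 2.44 TPM on HFD and 2.33, 0.05 and 2.27 TPM on HEP. All 3 had their high values in the lymphocyte-rich libraries, by at least 6.02, 12.4 and 32.4 times, and the differences between diets were 0.97 ± 0.83, 1.45 ± 1.20 and 0.54 ± 0.69. That of Cxcr6 was 0.81 without HFD replicate 1 and 2.54 without HEP replicate 2. Ccr8, a receptor of regulatory and Th2 cells, followed the same order and was listed at 0 in HFD replicate 1 and HEP replicate 2. Ccr10, the Ccl27a receptor, was below the filter at 0.47, 0.65 and 0.72 TPM on HFD and 1.14, 0.08 and 1.16 TPM on HEP.

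Of the myeloid receptors, Ccr1 and Ccr2 lacked the lymphocyte-rich order, and Cx3cr1, Xcr1 and Cxcr2 had it. Ccr2, the monocyte receptor for Ccl2, Ccl7 and Ccl12, had 15.8, 33.2 and 23.4 TPM on HFD and 31.9, 17.8 and 23.4 TPM on HEP, a difference of 0.04 ± 0.33, which was -0.0067 with median-of-ratios scaling and -0.06 with quantile normalization. Means were 24.1 ± 8.74 TPM on HFD and 24.4 ± 7.08 TPM on HEP (SD, n = 3). Thus the Ccl2 values lay lower in each HEP sample while those of its receptor overlapped widely. Ccr1 ranged from 1.28 TPM in HFD replicate 3 to 3.53 TPM in HFD replicate 2. Cx3cr1, carried by resident macrophages and patrolling monocytes, had 0.75, 1.95 and 4.24 TPM on HFD and 4.20, 0.62 and 5.91 TPM on HEP, at least 2.15 times higher in the lymphocyte-rich libraries with a difference of 0.37 ± 0.66 between diets. The span of Cx3cr1 overlaps those of Csrnp1, Gorasp1 and Xirp1 on the same strand, where a strand setting would not separate shared stretches. Whether their exons overlap was not examined. Csrnp1 had 3.46, 5.59 and 11.8 TPM on HFD and 15.7, 2.95 and 15.9 TPM on HEP, in the lymphocyte-rich order that Cx3cr1 had, and its part in the Cx3cr1 level was not tested. Xcr1, the Xcl1 receptor of cross-presenting dendritic cells, had 0.22, 0.22 and 2.41 TPM on HFD and 3.73, 0.08 and 3.20 TPM on HEP, a difference of 0.69 ± 0.72. Cxcr2, the neutrophil receptor for Cxcl1, had 0.27, 0.36 and 2.64 TPM on HFD and 5.79, 0.39 and 6.77 TPM on HEP, a difference of 1.18 ± 0.78. Its lymphocyte-rich libraries exceeded the others by at least 6.77 times. Summed neutrophil markers did not share that order, with 26.4, 47.9 and 40.7 TPM on HFD and 28.6, 55.3 and 34.1 TPM on HEP, 1 of 4 in the lymphocyte-rich order and the defining marker Ly6g at 0 in all libraries. Cxcr1 reached 0.15 TPM at most. On chromosome 9 the genes Cxcr6, Xcr1, Ccr1, Ccr1l1, Ccr3 and Ccr2 lie side by side, and Cxcr6 and Xcr1, at one end of the run, had the lymphocyte-rich order while Ccr1 and Ccr2 did not.

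The atypical receptors were the class without a lymphocyte-rich order. Ackr3, which scavenges Cxcl12, had 14.5, 16.7 and 11.1 TPM on HFD and 8.49, 13.9 and 6.79 TPM on HEP, a difference of -0.53 ± 0.29. HEP replicates 1 and 3 were the lowest libraries, while HEP replicate 2 lay among the HFD values. Ackr1, which carries inflammatory chemokines across the endothelium of venules, had 6.16, 10.8 and 8.57 TPM on HFD and 7.02, 5.69 and 6.36 TPM on HEP, a difference of -0.34 ± 0.24. Ackr1 overlaps Cadm3 on the same strand, which had 7.16 to 13.2 TPM. Ackr2, the scavenger of inflammatory CC chemokines in lymphatic vessels, had 2.10, 2.01 and 1.73 TPM on HFD and 1.61, 2.64 and 1.14 TPM on HEP, a difference of -0.11 ± 0.29. Its highest and lowest libraries were both HEP. Ackr4, which scavenges homeostatic chemokines such as Ccl25, was below the filter, at 0.76, 0.56 and 0.71 TPM on HFD and 1.11, 0.97 and 0.79 TPM on HEP. All HEP values of Ackr4 lay above all HFD values, but it overlaps Acad11, which had 46.5 to 73.2 TPM, on the opposite strand. Such a separation was found in 1.88% of all genes tested, and its share among genes below the filter was not counted.

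Ratios within a library set a chemokine gene beside a marker of cells known to express it. Ccr2 per Csf1r, the macrophage growth factor receptor, was 0.855, 0.802 and 0.814 on HFD and 0.769, 0.793 and 0.659 on HEP, so Ccr2 varied with Csf1r within a narrow band and every HEP ratio lay below every HFD ratio. This non-overlap was noticed among 8 ratios and was not tested. Cx3cr1 per Csf1r was 0.0406, 0.0471 and 0.148 on HFD and 0.101, 0.0276 and 0.167 on HEP, higher in the lymphocyte-rich libraries. Cxcr5 per Cd79b, a B cell receptor chain, was 0.130, 0.128 and 0.114 in the lymphocyte-rich libraries HFD 3, HEP 1 and HEP 3. In the same libraries Ccr7 per Cd3e, a T cell receptor chain, was 0.857, 0.853 and 0.817. In the other 3 libraries the ratios were 0.0339 to 0.286 for Cxcr5 and 0.312 to 1.98 for Ccr7, from levels under 3 TPM of each gene. Cxcl12 per Pdgfra, a marker of adipose progenitors, was 8.14, 7.37 and 14.9 on HFD and 14.7, 10.4 and 18.8 on HEP. Cxcl12 per Cxcr4 was 16.7, 12.1 and 6.52 on HFD and 7.51, 27.1 and 5.51 on HEP and so was lowest in the lymphocyte-rich libraries. Cxcr5 per Pax5, a B cell transcription factor, was 0.273, 2.35 and 0.689 on HFD and 0.585, 0.133 and 0.544 on HEP. Ccl2 per Adipoq, the adipocyte gene for adiponectin, was 0.00372, 0.00830 and 0.00472 on HFD and 0.00364, 0.00250 and 0.00483 on HEP, and here the diets overlapped.

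**Figure D4:**
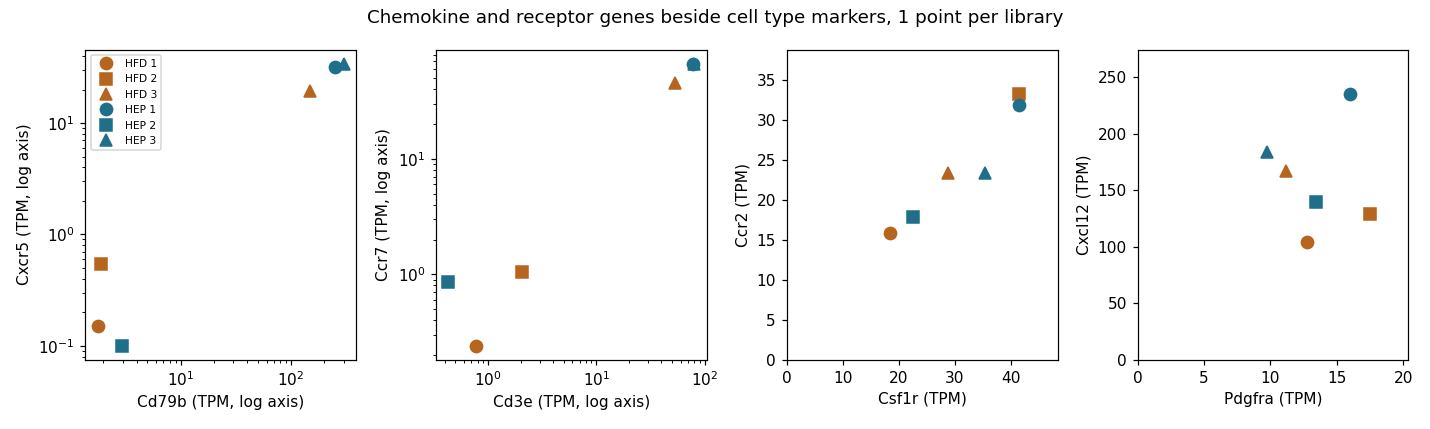
Each panel plots a chemokine or receptor gene against a cell type marker, in TPM, with 1 point per library, colour for diet and marker shape for replicate. The panels of Cxcr5 against Cd79b and Ccr7 against Cd3e have log axes and show 3 libraries high and 3 low in both genes; the panels of Ccr2 against Csf1r and Cxcl12 against Pdgfra have linear axes from 0, where the ratio of Ccr2 to Csf1r stays between 0.659 and 0.855.

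None of the genes that carry the signal inside the cell passed the test between diets. Of 31 tested genes of chemokine receptor signalling (Gi subunits, arrestins, receptor kinases, regulators of G protein signalling, phosphoinositide 3-kinase, phospholipase C and Rac activators) 0 were called higher and 0 lower in limma, and 0 had an unadjusted p under 0.05 in either direction. The smallest adjusted limma p was 0.879. Their median log2 fold change was 0.50, with 25 higher and 6 lower in HEP, beside 9057 higher and 6389 lower over all genes. Of the 31, 23 (74.2%) had the lymphocyte-rich order, beside 30.5% of all genes. Rac2, the Rac protein of blood cells, had 8.43, 7.65 and 95.1 TPM on HFD and 103, 5.28 and 155 TPM on HEP. Rac1, its ubiquitous relative, had 274, 374 and 345 TPM on HFD and 326, 311 and 303 TPM on HEP. Dock2, the leukocyte activator of Rac, had 2.51, 8.69 and 25.6 TPM on HFD and 44.6, 3.31 and 44.7 TPM on HEP. Rac2 and Dock2 thus split the libraries and Rac1 did not. Grk5, a receptor kinase, was the only gene of the 31 with all HEP values below all HFD values, as had 3.58% of all genes. It had 15.7, 18.1 and 14.8 TPM on HFD and 12.9, 12.5 and 13.7 TPM on HEP, a difference of -0.29 ± 0.16 (SE).

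Of the 18 genes below the filter, Ccl26 was listed at 0 in all 6 libraries, 11 were at 0 in some and 6 were above 0 in all. The genes just under the threshold were Ccl3 (mean 0.98 TPM), Ccl4 (0.88) and Ackr4 (0.82), and those just above it Ccr8 (1.035) and Ccr4 (1.20). Ccl1, Ccl28, Ccr3 and Ccr10 among the 18 also had their 3 highest values in the lymphocyte-rich libraries. Cxcr5, Cxcr6, Ccr9, Ccr10, Cx3cr1 and Cxcl16 overlap genes on the opposite strand too, and their levels carry the same limit as those of Ccl25 and Ccl27a.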

How the data were processed

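RNA sequencing of inguinal fat from 6 samples, 3 per diet group by their titles, was analysed. Per the labels' protocols, TRIzol was used for isolating RNA, of which 1 µg went into each TruSeq library. The deposited table held TPM values that the authors had computed for every gene in each sample. The submitters' processing notes list DESeq2, StringTie, RSEM, HISAT2 and fastp with neither version nor role, and for the build, annotation and strand setting the sources used here give nothing. TPM divides by the library's total, so abundant transcripts of 1 tissue lower all others. Depth is unknown, so no detection limit was given and a 0 is reported as listed at 0.

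On log2(TPM + 1), every gene whose mean level reached 1 TPM was fitted in R 4.3.3 with limma 3.58.1 (trended variance prior, two-sided test of HEP minus HFD), and p-values were adjusted by Benjamini-Hochberg over the whole table at a threshold of 0.05. The fit was tested on simulated data. A fold change on this scale understates that of low genes.

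The genes of the set, the gene lists, the tests and the alternatives were chosen with earlier results of these data known. Values in every sample were given for 39 genes: Ccl2, Ccr7 and Cxcr5, the 10 with the highest mean, the 10 with the smallest p, the 10 with the widest range, the atypical receptors and the partners of fixed ligand and receptor pairs; 1 gene of the set stays in the counts and is not reported here. GENCODE M21 gave gene order and overlaps of whole gene spans, introns included, for 58 of 58 IDs, and RefSeq (GRCm38.p6) gave promoters. The alternatives were a pseudocount of 0.1 TPM, no filter, a minimum mean of 5 TPM, quantile normalization, median-of-ratios scaling, the replicate number as a block, the mean of the B and T cell markers as a covariate, and leaving out each library. Counts of library order under other filters and scaling were added after seeing the data.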

Additional observations from a re-analysis of the deposited data

How the results depend on the processing

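No chemokine or receptor gene had an adjusted p under 0.05 in limma under any of the 13 alternatives. The count at an unadjusted p under 0.05, 0 of 40 as reported, was 1 of 57 without the filter (Ccl4; 2.13% of all genes), 1 with quantile normalization (Ccl2; 2.87% of all genes), 2 with the replicate block (Ackr3 and Ccl7; 3.73% of all genes), 1 with the lymphocyte covariate (Ccl17; 3.46% of all genes), and 0 to 9 when 1 library was left out, with the 9 without HEP replicate 2 (23.8% of all genes). Over all genes, leaving out 1 library gave 0 to 1 called genes, the 1 again without HEP replicate 2. The median log2 fold change of the tested set, 0.42, lay between -0.09 with the lymphocyte covariate and 0.80 without HEP replicate 2. The lymphocyte-rich order, 23 of 40 genes, was found in 14 of 28 with a minimum mean of 5 TPM, 27 of 57 without the filter and 23 of 40 with median-of-ratios scaling, against 30.8%, 20.7% and 26.3% of all genes under the same settings and 30.5% as reported. Some named genes changed sign. Ccr2 was -0.0067 with median-of-ratios scaling and -0.063 with quantile normalization, and Ccl17 was -0.15 with the latter. With the lymphocyte covariate 13 changed sign: Ackr2 to 0.062, Ccl9 to 0.28, Ccl17 to -0.95, Ccl21b to -0.41, Ccl22 to -0.49, Ccr2 to -0.10, Ccr4 to -0.16, Ccr7 to -0.021, Cx3cr1 to -0.28, Cxcl16 to -0.17, Cxcr4 to -0.30, Cxcr5 to -0.13 and Xcr1 to -0.042. Leaving out 1 library in turn spanned 0 for Ackr2 (-0.32 to 0.067), Ccl9 (-0.69 to 0.42), Ccl17 (-0.66 to 0.98), Ccr2 (-0.22 to 0.29), Cx3cl1 (-0.14 to 0.17) and Cx3cr1 (-0.049 to 1.00). The cause of these changes was not tested. The labels pair no samples across the diets, and same-numbered samples had correlations of -0.355, 0.368 and 0.651 in their deviations, so replicate numbers were taken as names only, and the replicate block called 0 genes. Depth is unknown, which limits every statement on genes near 0.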
